A study of Homo sapiens with 6 samples.

Results

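The axonemal dynein genes are 33 genes, of the 40396 Ensembl genes listed in the deposited table, that encode the chains of the dynein arms, the proteins that dock the arms on the microtubules and the factors that assemble them in the cytoplasm. They were chosen by symbol, current or older, and all 33 were found: 13 heavy chains, 7 intermediate and light chains, 5 docking and attachment proteins and 8 assembly factors. RNA-seq was done on H1, a human embryonic stem cell line, on day 3 of definitive endoderm (DE) differentiation. The 3 control samples and the 3 samples with 0.5 µM saracatinib (SAR), an inhibitor of Src family kinases, were all differentiated in activin A at 50 ng/ml, with the Wnt pathway activator CHIR99021 present at 2.5 µM during 24 h. The labels do not say whether the 3 samples of a group came from separate cultures, so p-values measure the spread between these samples, which may be technical. H1 is 1 cell line, and the libraries are of bulk RNA.

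Motile cilia beat because dynein motors, held in rows on the outer microtubule doublets of the axoneme, walk along the neighbouring doublet. Each arm is built around heavy chains, very large proteins that carry the motor, with intermediate and light chains at its base. The arms are preassembled in the cytoplasm by dedicated assembly factors before they enter the cilium, and loss of many of these genes in people causes primary ciliary dyskinesia, often with left-right asymmetry defects, since motile cilia of the embryonic node set the left-right axis. The genes are best known from multiciliated airway cells, sperm and the node, and FOXJ1 and the RFX factors, which bind X-box motifs, are transcription factors of the motile cilium program.

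Promoter sequence was read for the 23 members found in the RefSeq promoter table (GRCh38.p14), over the 250 bases before the gene start. The X-box arm GTTGCCA, searched on both strands, was present in 6 of the 23 (26.1%), in DNAH1, DNAH2, DNAH10, DNAH12, DNAI2 and WDR63, and in 3.49% of all 35116 promoters in the table. A full X-box, GTTNCC and GGNAAC with 0 to 3 bases between, which can contain the arm, was found in 1 of 23 members, DNAH1, and in 0.655% of all promoters. A forkhead motif, TGTTTAC or TGTTTGT on either strand, was found in 1 of 23 members, DNAH12, and in 7.23% of all promoters. These are letter matches in a window, and binding was not measured. The members differ in level as described after the sequences. The stretches around the match are shown for the 4 members whose window overlaps no annotated exon of the gene itself. Exons of other genes were not checked. The letters can thus be set beside the values of DNAH1, DNAH12, DNAI2 and WDR63. Capitals mark the full X-box in DNAH1, the X-box arm in DNAI2 and WDR63, and in DNAH12 the forkhead matches followed by the X-box arm, each printed 5′ to 3′ on the strand of the gene.
DNAH1 (chr3:52316191-52316250, plus strand): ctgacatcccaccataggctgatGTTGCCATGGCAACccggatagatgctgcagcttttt
DNAH12 (chr3:57544345-57544594, minus strand): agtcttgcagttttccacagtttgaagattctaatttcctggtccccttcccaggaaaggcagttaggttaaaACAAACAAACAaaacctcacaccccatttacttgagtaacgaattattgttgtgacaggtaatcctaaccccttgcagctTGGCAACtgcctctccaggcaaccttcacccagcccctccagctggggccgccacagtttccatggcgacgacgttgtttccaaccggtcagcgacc
DNAI2 (chr17:74274029-74274088, plus strand): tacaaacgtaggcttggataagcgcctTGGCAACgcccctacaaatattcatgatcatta
WDR63 (chr1:85062189-85062248, plus strand): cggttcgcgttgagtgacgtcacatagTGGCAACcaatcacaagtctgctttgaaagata
The match began 105 bases before the gene start in DNAH1, 97 in DNAH12, 178 in DNAI2 and 111 in WDR63. The WDR63 window lies inside the GENCODE 29 span of the gene, 84999147 to 85133138 on chromosome 1, and outside its exons.

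Expression was given as FPKM, the fragments of a gene scaled to its length and to the library total, so that levels can be compared between genes. The fragment totals recovered from the FPKM were between 18877964 and 24419937 in control and between 16681280 and 18389543 with SAR. Control replicate 1 stood apart at low levels: 33169 genes were above 0 in it, against 29506 to 30109 in the other 5 libraries. Among the 16140 genes at 0.01 to 0.5 FPKM in control replicates 2 and 3, 26.3% were more than 2-fold higher in control replicate 1, whereas 0.214% of the 13064 genes at 1 FPKM or more were. Of the 18 members in that low range, 55.6% were more than 2-fold higher in control replicate 1, with a median ratio of 2.10 against 1.13 for all genes of that range. The 10 members at 1 FPKM or more had a median ratio of 1.10. The highest ratios were those of the heavy chains DNAH2 (11.8) and DNAH12, followed by DNAH3 (9.64) and DNAH9 (7.53), and 7 of the 13 heavy chains were above 2. Why this library differs was not tested, and results on low members are therefore given with and without it.

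**Figure D1:**
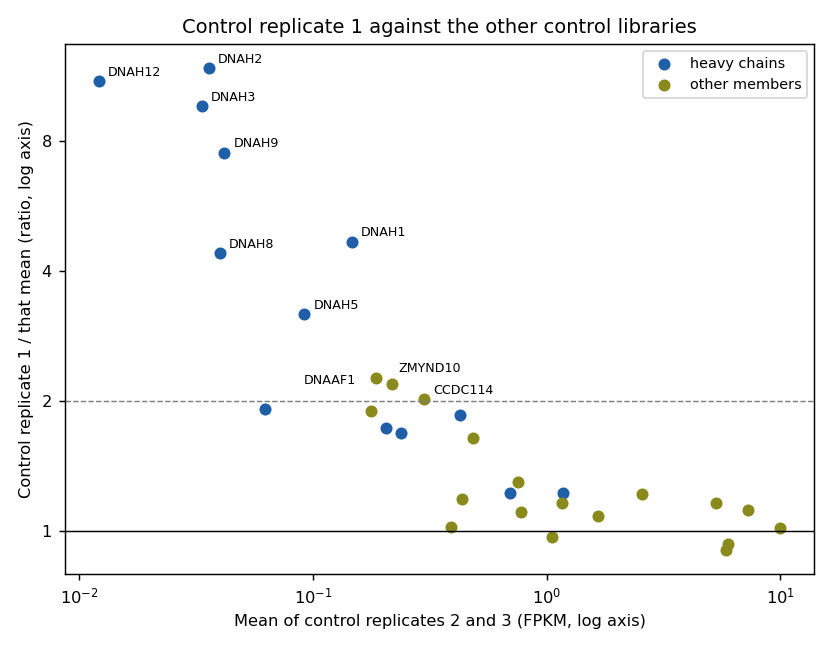
Level of each member with a value above 0 in control replicates 2 and 3 (x axis, mean of both in FPKM, log axis) against the ratio of control replicate 1 to that mean (y axis, log axis), with heavy chains in blue and the other members in olive. The ratio is near 1 for members above 1 FPKM and reaches 11.8 for DNAH2 among the lowest heavy chains.

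DE markers were present in both groups: of 10 tested by limma, SOX17, FOXA2 and HHEX were called higher and GATA4, EOMES, CER1 and GSC lower. With median-ratio rescaling, and without SAR replicate 1, only FOXA2 of the 3 was called higher, and without control replicate 1 FOXA2 and SOX17 were. By the adjusted p alone 3 of the 10 were higher and 6 lower. The 6 held CXCR4 and GATA6 as well (limma log2 fold change -0.51 and -0.58, adjusted p = 0.00872 and 0.0274). The summed level was 3947 to 5047 FPKM in control and 2026 to 2091 FPKM with SAR, of which CER1 alone was 3540 to 4603 and 1645 to 1714 FPKM, and the other 9 summed to 407 to 444 and to 335 to 434 FPKM. Markers of the node and notochord, the embryonic structures that pattern the midline and carry motile cilia at the node, were higher with SAR. All 7 that could be tested of the 10 in the list were called higher by limma, against 3.41% of all genes. Of these, FOXJ1, NOTO, CHRD and PKD1L1 had control means of 0.463, 0.0656, 0.274 and 0.172 FPKM. They were thus tested because of their level with SAR. The list of 10 summed to 50.0 to 55.5 FPKM in control and 160 to 187 FPKM with SAR. Most of that was FOXA2 (means of 23.6 and 64.0 FPKM) and SHISA2 (23.8 and 76.2 FPKM). FOXA2, FOXJ1 and NOTO, described elsewhere here, are in that list too. Of 9 markers of multiciliated cells, 3 could be tested and 2 were called higher, CCNO and PIFO, each by 1.41 on the log2 scale. CCNO, at a control mean of 0.386 FPKM, was tested because of its level with SAR. The list of 9 summed to 3.51 to 5.27 FPKM in control and 8.26 to 9.60 FPKM with SAR. The limma call of CCNO (adjusted p = 0.0476) was lost with median-ratio rescaling, and without any 1 library other than control replicate 1, while that of PIFO was kept. MCIDAS, a regulator that starts the multiciliated program, had 18, 2 and 2 reads in control and 7, 5 and 5 with SAR. GMNC, a regulator on the same list, had 16, 3 and 1 reads in control and 25, 13 and 20 with SAR. In FPKM every SAR library of GMNC was above every control. By voom 3 of the 9 markers were called higher, against 3.82% of all genes. Of 10 neural and floor plate markers 4 were tested and 1 was called higher, OLIG3, at 0.146, 0 and 0 FPKM in control and at 2.32, 3.60 and 4.85 FPKM with SAR, and SOX2 and SPON1 were higher by 0.88 and 0.51 on the log2 scale (limma adjusted p = 0.0153 and 0.0365). With a control mean of 0.0485 FPKM, OLIG3 was tested because of its level with SAR. The neural and floor plate list summed to 175 to 180 FPKM in control and 177 to 199 FPKM with SAR. PAX6, on this list and not tested by limma, was lower, with 48, 50 and 24 reads in control and 1 in each SAR library. By voom 9 of the list were tested, with 1 called higher and 1 lower, against 3.82% and 1.25% of all genes. Of 5 tested mesoderm markers TBXT, which is in the node list too, was called higher and MIXL1 lower. Of 8 pluripotency markers 0 were called higher and NANOG lower (limma log2 fold change -1.30). In sign 6 of the 8 were higher and 2 lower. By adjusted p alone SOX2, which is in that list too, and TDGF1 (0.20, limma adjusted p = 0.0470) were higher and NANOG lower. The pluripotency list summed to 544 to 673 FPKM in control and 683 to 715 FPKM with SAR. The part of these marker changes in the members' change was not tested, and in bulk RNA more cells of a type and more RNA per cell cannot be told apart.

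Most members were low. In control 5 members had a mean of at least 5 FPKM, DNAL4, DNAAF5, DNAL1, DNALI1 and DNAAF2, and 23 of the 33 were under 1 FPKM. The 19 members that averaged 0.5 FPKM or more across all 6 libraries were tested with limma on log2(FPKM + 0.1), a scale that understates the change of low genes. The 14 members under that minimum included 11 of the 13 heavy chains, whose gene lengths here ran from 13275 to 24848 bases. At such lengths low FPKM could still rest on many reads, as in DNAH5 (47 to 306 in each library). Others under the minimum had few reads in some libraries, such as DNAH12 (3 to 51) and DNAH8 (4 to 59). For 13 of these 14 the recovered reads were enough (at least 10 over the 6 libraries) for a test of reads with voom, which covered 32 members. Only CCDC103, a dynein attachment factor, was outside both tests, with 0.0117 FPKM (1 read) in control replicate 1 and a listed value of 0 in the other 5 libraries. In GENCODE 29, 98.8% of its exon bases are overlapped by other genes, mostly FAM187A, which limits what can be counted for it.

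**Figure D2:**
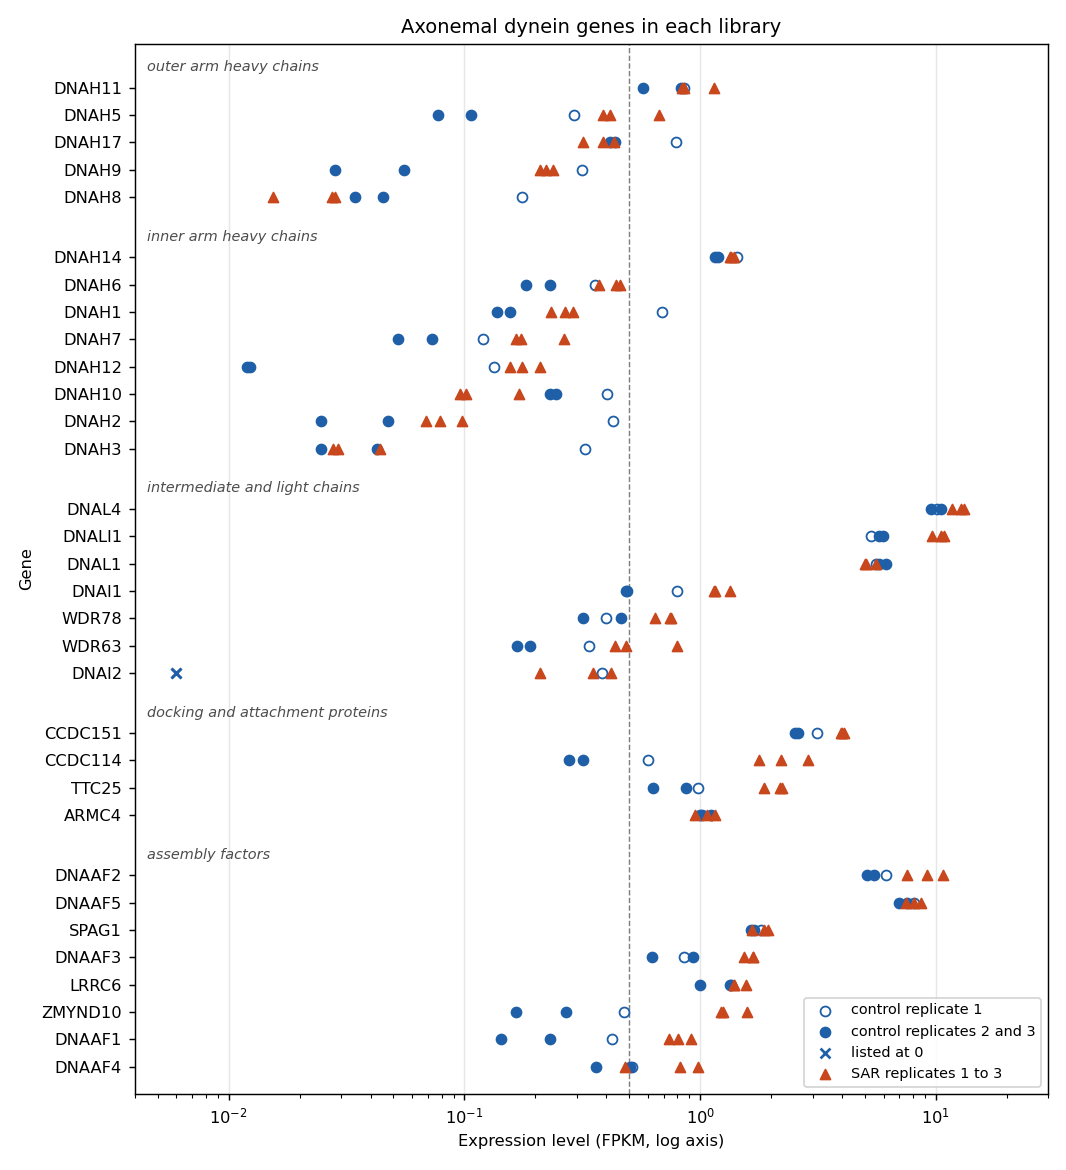
FPKM of 32 members (log axis) in each library, grouped by role, with open circles for control replicate 1, filled circles for control replicates 2 and 3 and triangles for SAR; crosses at the left mark libraries listed at 0, the broken line is 0.5 FPKM, and CCDC103 is left out. CCDC114, ZMYND10, TTC25 and DNAAF1 have all 3 SAR libraries to the right of all 3 controls, while DNAH10 and DNAH8 have them to the left.

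By limma, 4 of the 19 tested members were called upregulated with SAR (adjusted p under 0.05 and log2 fold change above 1), CCDC114, ZMYND10, DNAAF1 and TTC25, and 0 were called downregulated. Of all 16371 genes tested, 3.41% were called upregulated and 1.58% downregulated. By the adjusted p alone, 11 of the 19 were higher and 0 lower, against 23.7% and 9.55% of all genes. The median log2 fold change of the 19 was 0.59, and that of all genes tested was 0.12. Median-ratio rescaling removes this general shift by construction. It gave a median of 0.48 for the members and of -0.00 for all genes. With it, 398 genes were called upregulated and 364 downregulated in place of 559 and 259. The member calls stayed at 4 and 0 under that scaling, while the adjusted p alone gave 9 higher and 1 lower, DNAL1. Without control replicate 1, 5 members were called upregulated by limma, with DNAI1 added, and 0 downregulated, against 4.41% and 1.56% of all genes. There DNAI1, at a mean of 0.485 FPKM in control replicates 2 and 3, was tested because of its level with SAR. With the minimum lowered to 0.1 FPKM, 4 of 30 members were called upregulated and 0 downregulated (2.94% and 1.45% of all genes), and without control replicate 1 as well 8 of 29 and 0 (3.84% and 1.41%), with DNAH5, DNAI2 and WDR63 added. In that last fit DNAH5 (a mean of 0.0920 FPKM in control replicates 2 and 3) and DNAI2 (0 in both) were tested because of their level with SAR. Of the 4 called with all libraries, 3 had a control mean under 0.5 FPKM and so were tested because of their level with SAR. These were CCDC114, ZMYND10 and DNAAF1. The same held for WDR78 and DNAAF4, since 14 of the 19 tested members had a control mean of at least 0.5 FPKM. All of these count in the numbers and medians given for the 19.

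The upward values were shared by the 3 SAR libraries. Relative to the control mean of each gene, the median member was at 0.81, 0.71 and 0.52 on the log2 scale in SAR replicates 1, 2 and 3, and at 0.14, -0.05 and -0.08 in the controls. The median of all tested genes was between 0.12 and 0.13 in each SAR library. Of the 32 members with at least 10 reads, 17 had all 3 SAR libraries above all controls, 2 had them below and 13 overlapped, whereas 27.2% of all 26502 such genes were above and 12.3% below. Without control replicate 1 the numbers were 23, 3 and 6, against 37.2% above and 15.6% below for all genes. Of the 19 members tested by limma, 12 were above and 0 below (35.5% and 15.2% of all tested genes), and without control replicate 1 14 and 1 (42.5% and 19.3%).

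**Figure D3:**
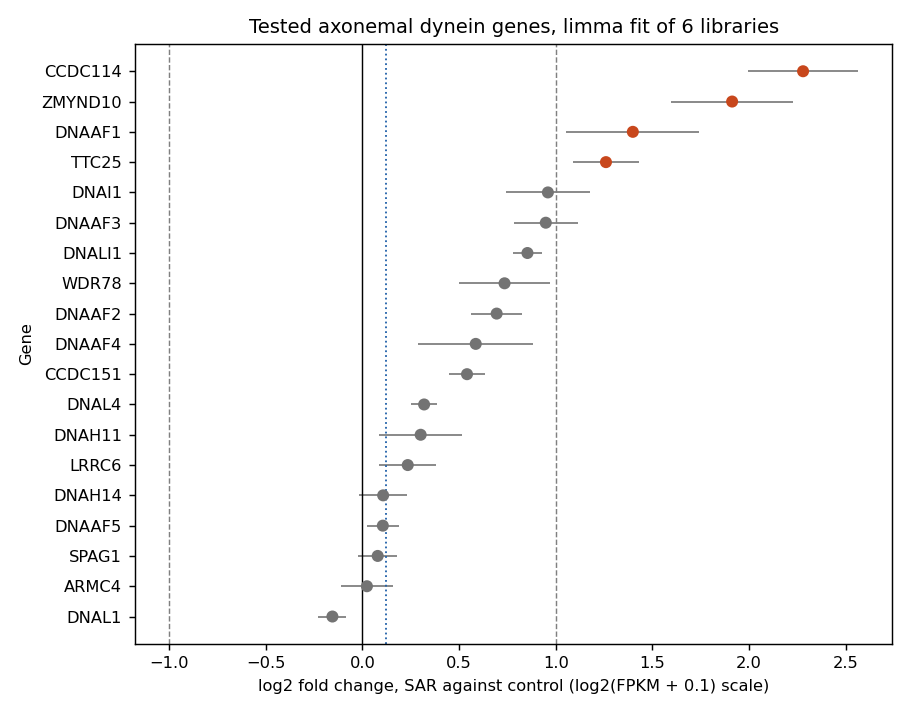
Log2 fold change of SAR against control on the log2(FPKM + 0.1) scale (x axis) for the 19 tested members, from limma on 6 libraries, with bars of 1 standard error; red points are called, broken lines mark 1 and -1, and the dotted line is the median of all genes tested, 0.12. CCDC114 is highest at 2.28 and DNAL1 lowest at -0.16.

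The docking and attachment proteins held the largest log2 fold change of the 19 members tested by limma. These proteins form or help to attach the complex that fixes outer arms to the doublet, and of 4 that could be tested 2 were called upregulated. CCDC114 (ODAD1, ENSG00000105479, chromosome 19, 48296457 to 48321894, minus strand), a core subunit of the docking complex, was at 0.603, 0.279 and 0.319 FPKM in control and at 2.20, 1.78 and 2.85 FPKM with SAR. The lowest SAR library was above the highest control, and the means were 0.400 ± 0.177 and 2.28 ± 0.542 (SD, n = 3 each). The limma log2 fold change of CCDC114 was 2.28 ± 0.284 (SE, adjusted p = 0.00231). TTC25 (ODAD4, ENSG00000204815, chromosome 17, 41930635 to 41965651, plus strand), another docking complex subunit, was at 0.975, 0.875 and 0.629 FPKM in control and at 2.22, 2.19 and 1.87 FPKM with SAR. The groups of TTC25 were separate, and its log2 fold change was 1.26 ± 0.173 (SE, limma adjusted p = 0.00315).

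CCDC151 (ODAD3), a docking complex subunit with a higher control level, was at 3.12, 2.54 and 2.59 FPKM in control and at 4.09, 4.01 and 3.98 FPKM with SAR. Its groups were also separate, and the difference of 0.54 ± 0.0936 on the log2 scale (limma adjusted p = 0.00674) was under the fold threshold. ARMC4 (ODAD2), which docks outer arms too, was at 1.02, 1.11 and 0.996 FPKM in control and at 1.07, 1.16 and 0.954 FPKM with SAR. Its libraries were intermingled, and the log2 fold change was 0.02 ± 0.135 (limma adjusted p = 0.908), turning to -0.09 with median-ratio rescaling. Subunits of 1 complex thus had values from 0.02 to 2.28, and the differences between them were not tested.

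Of the 8 assembly factors, all of which could be tested, 2 were called upregulated, and 4 had an adjusted p under 0.05. ZMYND10 (ENSG00000004838, chromosome 3, 50341110 to 50346852, minus strand), an assembly factor that works with chaperones on heavy chains, was at 0.474, 0.269 and 0.165 FPKM in control and at 1.22, 1.25 and 1.58 FPKM with SAR. Every SAR library was above every control, with a log2 fold change of 1.91 ± 0.314 (SE, limma adjusted p = 0.00557). DNAAF1 (ENSG00000154099, chromosome 16, 84145287 to 84178767, plus strand), a leucine-rich repeat protein needed for arm assembly, was at 0.422, 0.232 and 0.143 FPKM in control and at 0.809, 0.735 and 0.915 FPKM with SAR. The groups of DNAAF1 did not overlap, and its log2 fold change was 1.40 ± 0.343 (SE, limma adjusted p = 0.0219). That call did not hold without control replicate 2, control replicate 3 or SAR replicate 2 (adjusted p by limma 0.0596, 0.0563 and 0.0609). Without SAR replicate 1 or SAR replicate 3 the mean of DNAAF1 was 0.489 or 0.468 FPKM, under the minimum, and it was not tested, so that of the 6 libraries only control replicate 1 could be left out with the call kept.

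DNAAF3 and DNAAF2, both cytoplasmic factors of arm preassembly, had an adjusted p under 0.05 but less than a 2-fold change by limma. DNAAF3 was at 0.857, 0.930 and 0.626 FPKM in control and at 1.67, 1.68 and 1.53 FPKM with SAR, a log2 fold change of 0.95 ± 0.164 (limma adjusted p = 0.00674). In GENCODE 29, 31.4% of its exon bases are overlapped by other genes. DNAAF2 was at 6.13, 5.10 and 5.46 FPKM in control and at 10.7, 9.16 and 7.56 FPKM with SAR, a log2 fold change of 0.69 ± 0.133 (limma adjusted p = 0.00951). Neither gene had overlapping groups. DNAAF4, a chaperone partner with 40.5% of its exon bases overlapped, mainly by a readthrough transcript with CCPG1, had means of 0.461 ± 0.0847 and 0.762 ± 0.255 FPKM (limma log2 fold change 0.59, adjusted p = 0.167).

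The 3 remaining assembly factors did not pass, and the groups of DNAAF5 and SPAG1 overlapped. DNAAF5, a HEAT-repeat factor, was at 8.06, 6.97 and 7.50 FPKM in control and at 8.67, 8.11 and 7.49 FPKM with SAR (limma log2 fold change 0.11, adjusted p = 0.35). LRRC6 (DNAAF11), a partner of ZMYND10, was at 1.35, 1.34 and 1.00 FPKM in control and at 1.40, 1.57 and 1.39 FPKM with SAR (limma log2 fold change 0.23, adjusted p = 0.25), so that its lowest SAR library was just above its highest control. SPAG1, a tetratricopeptide repeat protein, was at 1.81, 1.64 and 1.70 FPKM in control and at 1.93, 1.66 and 1.86 FPKM with SAR (limma log2 fold change 0.08, adjusted p = 0.572). DNAAF5 and SPAG1 turned below 0 with median-ratio rescaling (-0.02 and -0.04).

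Of the intermediate and light chains, 5 of 7 could be tested by limma: 0 were called, and 4 had an adjusted p under 0.05, all higher with SAR. DNALI1, the light intermediate chain of inner arms, was at 5.29, 5.73 and 5.99 FPKM in control and at 10.5, 9.65 and 10.8 FPKM with SAR. Its 3 SAR values lay far above the controls, and at 0.85 ± 0.074 (limma adjusted p = 0.000767) it had the smallest adjusted p of the members while staying under the fold threshold. DNAI1, an intermediate chain of the outer arm, was at 0.796, 0.487 and 0.484 FPKM in control and at 1.16, 1.34 and 1.14 FPKM with SAR. The groups of DNAI1 were separate, and its limma log2 fold change of 0.96 ± 0.216 (adjusted p = 0.0163) became 1.16 (adjusted p = 0.0086), past the threshold, without control replicate 1. In that fit DNAI1 was tested because of its level with SAR, as the other controls averaged 0.485 FPKM.

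WDR78 (DNAI4), an intermediate chain of an inner arm, had means of 0.392 ± 0.0715 FPKM in control and 0.714 ± 0.0609 FPKM with SAR (limma log2 fold change 0.73, adjusted p = 0.0498, 0.0861 with median-ratio rescaling). At that control mean it was tested because of its level with SAR. DNAL4, a light chain, was at 10.1, 10.5 and 9.53 FPKM in control and at 11.7, 13.1 and 12.8 FPKM with SAR, a rise of 0.32 ± 0.0676 on the log2 scale (limma adjusted p = 0.0134, 0.0761 with median-ratio rescaling). DNAL1, an outer arm light chain that binds the motor domain, was the exception in sign. It was at 5.54, 6.16 and 5.75 FPKM in control and at 5.07, 5.56 and 5.01 FPKM with SAR, groups that overlapped slightly (limma log2 fold change -0.16, adjusted p = 0.139, and -0.28 with 0.0388 after median-ratio rescaling).

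DNAI2 and WDR63 (DNAI3), intermediate chains of the outer and an inner arm, were below the limma minimum. DNAI2 had 24, 0 and 0 reads in control and 10, 17 and 22 reads with SAR, or 0.383 FPKM in control replicate 1 against 0.209, 0.350 and 0.418 FPKM with SAR. Control replicate 1 thus lay within the SAR libraries, and against the other controls, at 0, the SAR mean was at least 5.87-fold higher (floor of 3 reads per library). WDR63 had 29, 16 and 14 reads in control and 52, 29 and 35 reads with SAR, or 0.337, 0.167 and 0.189 FPKM and 0.795, 0.436 and 0.485 FPKM. Its groups did not overlap in FPKM, and the voom log2 fold change was 1.30 ± 0.342 (adjusted p = 0.0182).

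The heavy chains were tested on reads, since the 2 with a mean above 0.5 FPKM, DNAH14 and DNAH11, were the only ones in the limma fit and did not pass there. In voom, 11 of 32 members were called upregulated and 1 downregulated, against 3.82% and 1.25% of 26502 genes. The 11 held all 4 limma calls, with DNAI1, DNAAF3, WDR63, DNAI2, DNAH5, DNAH7 and DNAH12, and the 1 downregulated was DNAH10. Without control replicate 1, 14 members were called upregulated and 0 downregulated, against 6.73% and 1.95% of 24335 genes, and the 14 held the same 11 with DNAH9, DNAH6 and DNAH2. In that fit DNAI2 (0 reads in control replicates 2 and 3) and DNAH12 (4 and 3) reached the minimum of 10 reads only through SAR. The heavy chains called upregulated were 3 of 13 with all libraries and 6 of 13 without control replicate 1. Summed over the 13, heavy chain reads were 2355, 1422 and 1022 in control and 1323, 1327 and 1760 with SAR, and the summed FPKM were 6.31, 3.34 and 3.08 and 4.47, 4.39 and 5.32. The SAR libraries were above control replicates 2 and 3 in summed FPKM and below control replicate 1.

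**Figure D4:**
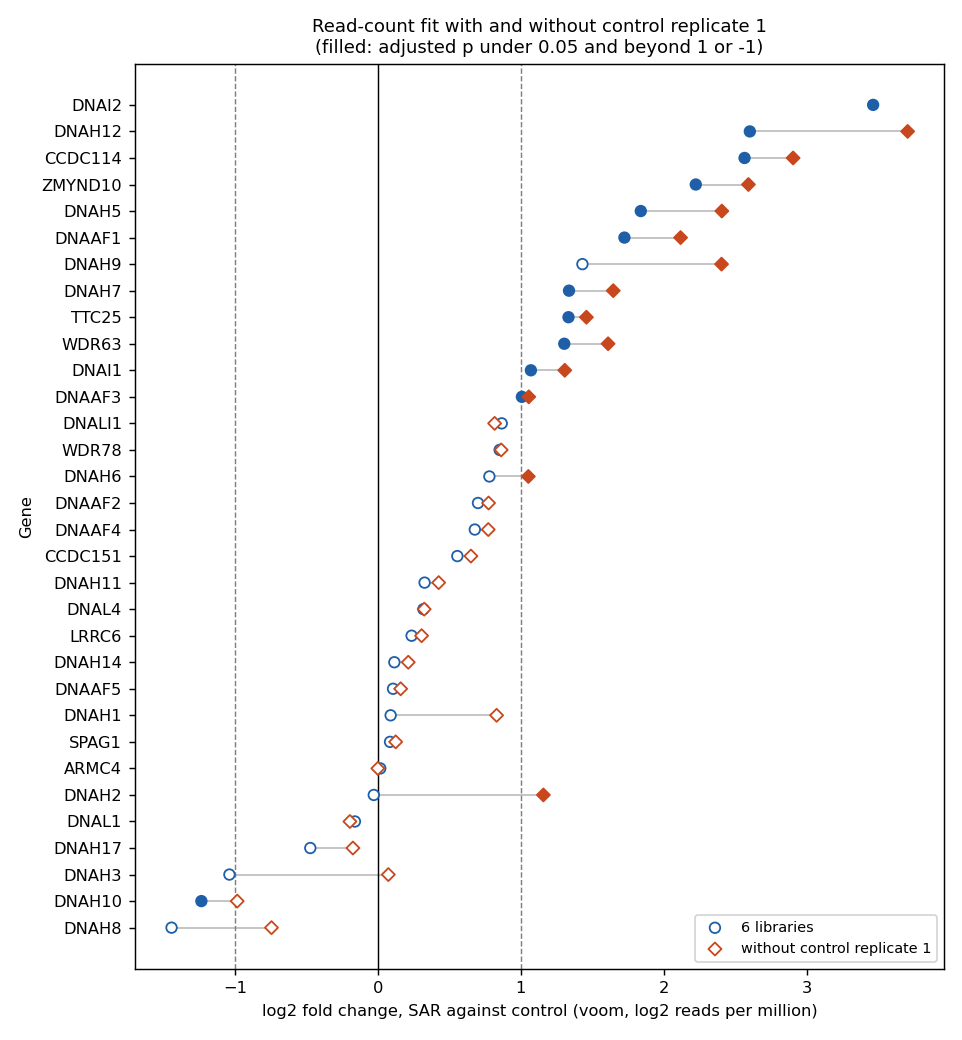
Log2 fold change of SAR against control from voom on recovered reads (x axis, log2 reads scaled to the library total) for 32 members, with all 6 libraries (blue circles) and without control replicate 1 (red diamonds); filled symbols are called, broken lines mark 1 and -1, and the value of DNAI2 without control replicate 1 is not drawn because both remaining controls are at 0. Of the members drawn, DNAH2 and DNAH3 move most between the fits, and DNAH9, DNAH6 and DNAH2 are called only without that library.

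Among outer arm heavy chains, DNAH5 (ENSG00000039139, chromosome 5, 13690331 to 13944543, minus strand), a main motor of outer arms in motile cilia and a gene often mutated in primary ciliary dyskinesia, was at 0.292, 0.0775 and 0.107 FPKM in control and at 0.386, 0.413 and 0.670 FPKM with SAR. These values rested on 159, 47 and 50 reads and on 160, 174 and 306 reads. The SAR libraries were all above the controls, and the voom log2 fold change of DNAH5 was 1.84 ± 0.377 (adjusted p = 0.00524), or 2.41 (adjusted p = 8.92e-05) without control replicate 1. DNAH9, its partner in the distal part of the cilium, was at 0.315, 0.0556 and 0.0281 FPKM in control and at 0.223, 0.209 and 0.238 FPKM with SAR. Control replicate 1 was the highest of the 6 for DNAH9, and the voom log2 fold change was 1.43 ± 0.561 (adjusted p = 0.0917) with it and 2.40 ± 0.317 (adjusted p = 0.00015) without it.

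DNAH11, an outer arm chain of the proximal cilium and the node, was one of the 2 most abundant heavy chains, at 0.855, 0.828 and 0.570 FPKM in control and at 0.834, 0.854 and 1.15 FPKM with SAR. Its groups overlapped (limma log2 fold change 0.30, adjusted p = 0.31), and 5.2% of its exon bases are shared with CDCA7L on the other strand, which was at 10.9 and 12.2 FPKM. The strand setting of the counting is not given in the sources used here, so reads of overlapping genes cannot be told apart. DNAH8 and DNAH17, heavy chains of the sperm flagellum, had lower means with SAR. DNAH8 was at 0.175, 0.0454 and 0.0345 FPKM in control and at 0.0273, 0.0154 and 0.0283 FPKM with SAR, lower in every SAR library, but the 7, 4 and 8 reads with SAR did not pass (voom log2 fold change -1.44, adjusted p = 0.167). DNAH17 was at 0.791, 0.437 and 0.414 FPKM in control and at 0.320, 0.432 and 0.388 FPKM with SAR, overlapping groups (voom log2 fold change -0.47, adjusted p = 0.199). Of its exon bases 9.7% are overlapped by DNAH17-AS1 and PGS1 on the other strand, and PGS1 was at 8.78 FPKM in control and 6.43 FPKM with SAR (limma log2 fold change -0.45, adjusted p = 0.00971), whose part in the DNAH17 value was not tested.

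Among inner arm heavy chains, DNAH12 (ENSG00000174844, chromosome 3, 57293699 to 57544344, minus strand), the gene with both motif matches in its promoter, had the largest ratio. It was at 0.134, 0.0123 and 0.0120 FPKM in control, from 39, 4 and 3 reads, and at 0.176, 0.156 and 0.209 FPKM with SAR, from 39, 35 and 51 reads. All 3 SAR libraries were above the controls in FPKM, with control replicate 1 close below them, and the mean with SAR was 3.41-fold the control mean and 14.8-fold that of control replicates 2 and 3. The voom log2 fold change of DNAH12 was 2.60 ± 0.614 (adjusted p = 0.0109), and 3.71 ± 0.493 (adjusted p = 0.00016) without control replicate 1.

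DNAH7 and DNAH6, both inner arm chains, were higher in every SAR library than in every control. DNAH7 was at 0.120, 0.0729 and 0.0521 FPKM in control and at 0.174, 0.166 and 0.265 FPKM with SAR (voom log2 fold change 1.34, adjusted p = 0.00802). DNAH6 was at 0.358, 0.182 and 0.231 FPKM in control and at 0.439, 0.371 and 0.459 FPKM with SAR, below the fold threshold with all libraries (voom log2 fold change 0.78, adjusted p = 0.0295) and above it without control replicate 1 (1.05, adjusted p = 0.0018). DNAH14, the most abundant heavy chain and one whose place in the arms is less well known, was at 1.43, 1.15 and 1.19 FPKM in control and at 1.39, 1.34 and 1.35 FPKM with SAR. Its groups overlapped, with a limma log2 fold change of 0.11 (adjusted p = 0.526) that was -0.01 with median-ratio rescaling.

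For DNAH1, DNAH2 and DNAH3, also inner arm chains, control replicate 1 decided the direction or the call. DNAH1, whose promoter held the full X-box, was at 0.688, 0.156 and 0.137 FPKM in control and at 0.268, 0.234 and 0.290 FPKM with SAR, 0.807-fold the control mean and 1.80-fold that of control replicates 2 and 3 (voom log2 fold change 0.09 with an adjusted p of 0.918, and 0.83 with 0.0117). DNAH2, a heavy chain of the double-headed inner arm, was at 0.427, 0.0475 and 0.0246 FPKM in control and at 0.0974, 0.0685 and 0.0789 FPKM with SAR, for which voom gave -0.03 (adjusted p = 0.984) with that library and 1.16 (adjusted p = 0.0295) without it. DNAH3 was at 0.323, 0.0246 and 0.0425 FPKM in control and at 0.0441, 0.0276 and 0.0291 FPKM with SAR, or -1.04 by voom (adjusted p = 0.471) with that library and 0.07 (adjusted p = 0.913) without it.

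DNAH10, the partner of DNAH2 in the double-headed inner arm, went the other way. It was at 0.402, 0.245 and 0.232 FPKM in control, from 143, 97 and 71 reads, and at 0.0960, 0.102 and 0.171 FPKM with SAR, from 26, 28 and 51 reads. Every SAR library was below every control, with or without control replicate 1, and the voom log2 fold change was -1.23 ± 0.297 (adjusted p = 0.0121), or -0.98 ± 0.242 (adjusted p = 0.00881) without that library, just short of the fold threshold. On the other strand DNAH10OS and CCDC92 overlap 16.6% of the DNAH10 exon bases, and their means were 1.43 and 1.31 FPKM, and 3.62 and 3.80 FPKM, in control and with SAR. Their part in the DNAH10 value was not tested.

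Among the 6 members with an X-box arm in the promoter window, DNAH12, DNAI2 and WDR63 were called upregulated by voom with all libraries, DNAH2 only without control replicate 1, DNAH1 in neither fit, and DNAH10 was called downregulated with all libraries. Of all genes, voom called 3.82% upregulated and 1.25% downregulated. Members read without the arm were called upregulated by voom too: CCDC114, ZMYND10, DNAI1, DNAH5 and DNAH7. Whether the arm goes with the change was not tested. Of the 4 members called by limma, CCDC114 and ZMYND10 had a window in the promoter table and neither held a full X-box or the arm, and DNAAF1 and TTC25 were not read.

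The other genes of the axoneme, which encode radial spokes, the central pair, the nexin link and proteins inside the microtubules, were set beside the members from a list of 60. Of 35 tested, 13 were called upregulated and 0 downregulated by limma, against 3.41% and 1.58% of all genes. The median log2 fold change of the 35 was 0.65. Of the 13, RSPH1, RSPH4A, CFAP91, SPAG6, DRC1, CFAP52, EFHC2 and ENKUR had control means between 0.0263 and 0.480 FPKM. They were thus tested because of their level with SAR. DRC1, of the nexin link between doublets, was at 0.480 ± 0.197 FPKM in control and 4.08 ± 0.827 FPKM with SAR, a limma log2 fold change of 2.88 ± 0.254 (adjusted p = 0.000811). SPAG6 and SPAG16, both of the central pair, had limma log2 fold changes of 1.99 and 1.01 (adjusted p = 0.00115 and 0.000432). DRC3, also of the nexin link and named after its value was seen, was lower, at 0.978 ± 0.0554 and 0.461 ± 0.00517 FPKM (limma log2 fold change -0.94, adjusted p = 0.00818). By voom, 25 of the 60 were called upregulated and 1, DRC3, downregulated, against 3.82% and 1.25% of all genes. DRC3 was also called lower with median-ratio rescaling (-1.05), quantile normalization (-1.17) and a pseudocount of 0.01 (-1.07).

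Cytoplasmic dynein, the relative of the arms that moves cargo along microtubules in all cells and, as its second form, drives return transport inside cilia, had a median nearer to that of all genes. Of 16 genes 15 were tested, with 0 called in either direction by limma, 5 higher and 2 lower by adjusted p alone (23.7% and 9.55% of all genes), 7 and 3 at an unadjusted p under 0.05 (32.4% and 13.8% of all genes), and a median log2 fold change of 0.15, beside 0.12 for all genes. By voom 1 of 16 was called upregulated, DYNLRB2, a light chain at 0.162 ± 0.0877 FPKM in control and 0.596 ± 0.0952 FPKM with SAR (log2 fold change 1.87, adjusted p = 0.0142), named after its value was seen. The cytoplasmic heavy chain DYNC1H1 was at 12.3 ± 1.64 FPKM in control and 8.65 ± 1.54 FPKM with SAR (limma log2 fold change -0.51, adjusted p = 0.0371). DYNC2H1, the heavy chain of return transport in cilia, was at 3.64 ± 0.312 and 3.17 ± 0.387 FPKM (limma log2 fold change -0.20, adjusted p = 0.201). DYNC2I2, an intermediate chain of the same motor, rose by 0.52 on the log2 scale (limma adjusted p = 0.00185).

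Of 13 transcription regulators of ciliary genes, 9 were tested and 2 were called upregulated by limma. FOXJ1, the forkhead factor of the motile cilium program, was at 0.463 ± 0.119 FPKM in control and 12.0 ± 3.28 FPKM with SAR, a log2 fold change of 4.40 ± 0.238 (limma adjusted p = 0.000157). NOTO, a homeobox factor of the node and notochord, was at 0.0656 ± 0.0585 FPKM and 1.95 ± 0.691 FPKM (limma log2 fold change 3.65, adjusted p = 0.00164). RFX2, an X-box binding factor, had a limma log2 fold change of 0.93 (adjusted p = 0.0114). Whether any of these factors acted on the members was not measured.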

How the data were processed

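Poly(A) RNA-seq of 6 samples was used, and the authors deposited FPKM for 40396 genes, 1 column per library, with 0 columns belonging to no sample. The submitters' processing notes name HISAT2, Subread, featureCounts, DESeq2 and GRCh38.p13; their versions, the annotation and the strand setting are not given in the sources used here. Gene positions and exon overlaps are those of GENCODE 29 on GRCh38, and promoters those of RefSeq on GRCh38.p14.

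Fragment totals and reads per gene were recovered from the FPKM and exon lengths. For 98.9% of genes every value came out whole within 0.02 reads, and 15 of the 33 members fitted the GENCODE 29 length and 18 another whole length. The read number of a gene shows only its counting error. Between libraries of a group the reads spread more than by counting error (chi-square per degree of freedom of 3.98 to 13.2).

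Because FPKM are not counts, log2(FPKM + 0.1) was fitted with limma 3.58.1 under R 4.3.3, using eBayes with its trend option, for 16371 genes averaging 0.5 FPKM or more across all libraries. P-values are two-sided and adjusted over all genes tested by Benjamini and Hochberg, and a call needed a log2 fold change past 1 or -1 at an adjusted p under 0.05. The alternatives were pseudocounts of 1 and 0.01, other minimum levels, quantile normalization, median-ratio rescaling, eBayes with no trend, a replicate block, voom on recovered reads (at least 10 in all), no threshold on the fold, and leaving out each library. The fits were tested on simulated data, which held no genes as low as the members under the limma minimum and no deviating library. That test therefore does not cover those members or control replicate 1. Tables used Python 3.11.15 with pandas 2.3.3 and numpy 2.4.6, and plots matplotlib 3.10.9.

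The members, the gene lists and the markers were chosen with earlier results of these data known. All members were named, and of the other lists FOXJ1, DYNC1H1, DYNC2H1 and up to 3 genes by smallest adjusted p. Values per library were planned for members that were called, had a mean of at least 1 FPKM or were at 0 in some library; those of the heavy chains, WDR63 and DNAAF3 were added after the values had been seen. Promoters were to be printed for called members with an X-box, of which there were 0, so the 4 printed were chosen after the values had been seen.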

Additional observations from a re-analysis of the deposited data

How the results depend on the processing

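The number of members called upregulated, 4 of 19, became 1 with a pseudocount of 1, 2 with a minimum of 1 FPKM, 11 by voom, 11 without a minimum fold change, and 3 to 5 with each library left out in turn. DNAAF1, ZMYND10 and TTC25 fell under the fold threshold with the pseudocount of 1 (0.53, 0.85 and 0.76). Combinations without control replicate 1, added after seeing the data, gave 8 with no filter, 8 with a minimum of 0.1 FPKM and 14 by voom. Members called downregulated were 0, and 1 by voom, and stayed at 0 with each library left out. The other axonemal genes called upregulated, 13, became 5 with the pseudocount of 1, 7 with a minimum of 1 FPKM, 25 by voom, 23 without a minimum fold change, 9 to 15 with each library left out, and without control replicate 1 22 with a minimum of 0.1 FPKM and 30 by voom; those called downregulated, 0, became 1 with median-ratio rescaling, quantile normalization, a pseudocount of 0.01, voom or no minimum fold change. The cytoplasmic dynein genes, 0, became 1 with no filter, a minimum of 0.1 FPKM or voom, with or without control replicate 1, 5 without a minimum fold change, and 0 with each library left out. The member median, 0.59, became 0.30 with the pseudocount of 1, 0.32 with a minimum of 1 FPKM, 0.40 with quantile normalization, 0.46 to 0.67 with each library left out, and without control replicate 1 0.76 with a minimum of 0.1 FPKM and 0.82 by voom. The lower minimums and voom test more genes, and otherwise the cause was not tested. Among genes not called, the sign turned for DNAH14 (-0.0070 with median-ratio rescaling, -0.092 with quantile normalization), ARMC4 (-0.089 and -0.19, -0.0047 without control replicate 3, -0.036 to 0.090 over all libraries left out in turn, lowest without SAR replicate 2, -0.12 with median-ratio rescaling without control replicate 1), DNAAF5 (-0.016 with median-ratio rescaling) and SPAG1 (-0.037 and -0.11, and -0.014 with median-ratio rescaling without control replicate 1).

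With the replicate number as a block, 4 members were called upregulated and 0 downregulated, with 12 other axonemal genes, 0 cytoplasmic dynein genes and a member median of 0.59. Samples with the same number correlated in their deviations from the group means at 0.0729, 0.0029 and 0.0247, too weakly to take the numbers as a pairing. Depth limits the low members, since heavy chains such as DNAH8 and DNAH3 had under 20 reads in most libraries.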
